A study of Mus musculus with 21 samples.

Results

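The genes with which mouse oocytes build their coat and signal to the follicle were examined across preimplantation development, 7 in all: the zona pellucida genes Zp1, Zp2 and Zp3, the growth factor genes Gdf9 and Bmp15, the oocyte secreted protein gene Oosp1 and the transcription factor gene Figla. They were chosen by name. Transcripts built from long reads were assigned to a gene by exon overlap on the same strand with GENCODE vM21, and the level of a gene was the sum of the TPM of its transcripts (a share of all transcripts in the library, corrected for length). Of the 7 genes, 6 had at least 1 transcript, and these 6 had 15 of the 22612 merged transcripts, against 10917 annotated genes with a transcript in all. Figla had none in the merged set or in any stage, so it has no level here.

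The data comprised 14 short-read libraries, 2 for each of 7 stages, and 7 long-read libraries, 1 pool for each stage in which both batches were mixed. Sperm came from DBA/2J males, metaphase II oocytes from superovulated C57/BL6J females of 3 to 5 weeks, and the embryos from crosses of the same strains, with every female given 7.5 IU of PMSG and 7.5 IU of hCG. The extraction notes name DBA/2N males in place of DBA/2J. Oocytes were collected 20 h after hCG, 1-cell embryos at 24 to 26 h, 2-cell embryos at 46 to 48 h, 4-cell embryos at 54 to 58 h, 8-cell embryos at 68 to 70 h and blastocysts at 94 to 96 h, after culture in KSOM. Every library was amplified from pooled oocytes, embryos or sperm, so 2 libraries of a stage show the spread between batches and not between single embryos. In such pools, fewer cells with a transcript and less of it in each cell cannot be told apart.

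The zona pellucida is the glycoprotein shell around the oocyte, and in the mouse it is assembled from ZP1, ZP2 and ZP3 that the growing oocyte secretes. GDF9 and BMP15 are secreted ligands of the TGF-beta family that act on the granulosa and cumulus cells around the oocyte. FIGLA is a basic helix-loop-helix factor known for activating the Zp genes through E-box sequences in their promoters, and OOSP1 is a small secreted protein of the oocyte. In mice, the oocyte transcribes these genes during growth, its transcription stops before ovulation, and much of the stored maternal RNA is lost by the 2-cell stage.

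The promoters of the members are shown first, because an E-box is the known point of contact of FIGLA. RefSeq windows (GRCm38.p6) were at hand for Zp3, Bmp15, Oosp1 and Figla, and not for Zp1, Zp2 or Gdf9. The part of each window before the first known start is printed for the 3 of these genes with a level, 5′ to 3′, with every CANNTG E-box in capitals (the motif reads the same on both strands).
Zp3, chr5:135979855-135980098, plus strand: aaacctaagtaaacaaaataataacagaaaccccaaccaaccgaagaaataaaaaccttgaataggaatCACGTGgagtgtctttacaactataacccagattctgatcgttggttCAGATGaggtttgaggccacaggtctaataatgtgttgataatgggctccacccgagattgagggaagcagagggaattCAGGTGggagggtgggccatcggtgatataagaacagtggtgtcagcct
Bmp15, chrX:6320725-6320974, minus strand: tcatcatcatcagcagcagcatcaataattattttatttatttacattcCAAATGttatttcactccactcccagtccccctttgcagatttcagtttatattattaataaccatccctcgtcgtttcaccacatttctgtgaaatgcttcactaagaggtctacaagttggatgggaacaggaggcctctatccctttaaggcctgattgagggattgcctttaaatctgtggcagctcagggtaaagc
Oosp1, chr19:11691153-11691301, minus strand: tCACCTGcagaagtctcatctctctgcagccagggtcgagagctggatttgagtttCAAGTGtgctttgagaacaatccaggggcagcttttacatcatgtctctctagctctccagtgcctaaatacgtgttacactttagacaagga

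In the whole windows of 300 bases, 250 before the RefSeq start and 50 from it on, CANNTG occurred 4 times for Zp3, 1 time for Bmp15, 5 times for Oosp1 and 4 times for Figla. At least 1 match stood in 72.3% of the 32851 windows, at least 4 in 6.5% and at least 5 in 2.1%. The narrower form CACCTG, or CAGGTG on the other strand, is contained in CANNTG. It stood at base -55 of Zp3, at bases -249 and -59 of Oosp1, at bases -173, 9 and 22 of Figla, and in no place in the Bmp15 window, against 20.2% of all windows with it. CAGCTG, held by 16.3% of windows, occurred at base 8 of Zp3, and CACGTG, held by 7.15%, at base -181 of Zp3. Of the homeobox motifs TAATTG and TAATTA, searched on both strands and held by 8.00% and 5.29% of windows, TAATTA occurred at base -225 of Bmp15 and neither occurred in the other 3 windows. The long-read transcripts began 3 bases before the RefSeq start for Zp3, 1 base after it for Bmp15 and 101 bases before it for Oosp1. The Oosp1 matches at bases -93, -59 and -48 thus lie downstream of its long-read start. The Figla window, chr6:86016941-86017240, lies inside the vM21 gene, which starts at base 86016171. All of the matches are letters in a window and say nothing of binding in these cells.

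Before any comparison, the 2 libraries of the 2-cell stage have to be set apart. All 6 genes were higher in 2-cell replicate 2 than in replicate 1, by 3.37 times for Zp3 up to 25.1 times for Gdf9. Over all 9898 genes with a TPM of at least 1 in either library, 51.2% were higher by more than 1 on the log2(TPM + 1) scale in replicate 2, and the median difference was 1.04. The summed TPM of 6 markers of the 2-cell stage (Zscan4c, Zscan4d, Zfp352, Usp17lc, Tcstv1, Tcstv3) was 26.2 in replicate 1 and 447 in replicate 2, against 4.92 to 46.8 in the oocyte and 1-cell libraries and 0.301 to 24.5 in the 4-cell to blastocyst libraries. The study lists more reads for replicate 2 than for replicate 1, and the part of depth in these differences was not tested. Calls that rest on the 2-cell libraries are given below with each of them left out. The titles and the deposited files number the 8-cell replicates in opposite ways, and the titles are followed here.

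Markers of the other stages were read in the same way. The 7 spermatid and sperm markers summed to 17339 and 21188 TPM in the sperm libraries and to no more than 17.1 TPM elsewhere. The 7 measured of 8 blastocyst markers summed to 10208 and 37379 TPM in the blastocyst libraries and to no more than 775 elsewhere. The 6 maternal oocyte markers, among them the subcortical complex genes Nlrp5, Padi6 and Ooep, summed to 13908 and 8564 TPM in the oocyte libraries and to 7.56 and 21.7 in sperm. They stood at 1348 to 10502 in the 4-cell to blastocyst libraries, so this sum does not set oocytes apart from embryos. Dppa3 made up most of these later sums, at 8192 and 9783 TPM in 4-cell. The single markers differed: Zar1 went from 946 and 4016 TPM in oocyte to 1.85 and 1.03 in 4-cell. Padi6 overlapped, at 29.9 and 47.3 TPM in oocyte and 26.3 and 30.5 in 4-cell. Of these 6 genes, 3 were called lower in 2-cell than in 1-cell (Zar1, Ooep and Nlrp5), against 6.2% of all genes, and of the 6 markers of the 2-cell stage 3 were called higher (Usp17lc, Zscan4d and Zscan4c), against 26.1%. The call of Nlrp5 was lost without 2-cell replicate 1 (adjusted p = 0.0735) and that of Zscan4c without 2-cell replicate 2 (adjusted p = 0.508), while the other 4 held without either. None of the sperm, blastocyst or follicle markers tested was called at that step with both libraries. Without 2-cell replicate 1, 1 of 4 sperm, 2 of 7 blastocyst and 1 of 1 follicle markers were called higher, against 32.2% of all genes, and without 2-cell replicate 2, 1 blastocyst marker was called lower. Of 12 cumulus and granulosa markers, 2 were measured. Ptgs2 reached no more than 0.481 TPM in the oocyte, 1-cell and 2-cell libraries, and Nr5a2, which the embryo also transcribes, was at 1.84 and 3.18 TPM in the oocyte libraries. The other 10, Has2, Fshr, Foxl2 and Amh among them, had no transcript in the merged long-read set. They have no level here, which does not show that their RNA was absent. The part of follicle cells in the oocyte levels was not tested beyond these values.

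All 6 genes were oocyte transcripts by level. Each was higher in both oocyte libraries than in both sperm libraries, as were 26.3% of the genes tested, and each was called in the limma fit (6 of 6, against 17.4% of the 10735 genes tested that were called higher in oocyte). Each was also called lower in blastocyst than in oocyte (6 of 6, against 18.0% of the 10000 genes tested). The genes were chosen as oocyte genes, and all 6 had long-read models in oocyte and none in sperm or blastocyst. The counts of both comparisons were therefore largely set by the choice of genes and are no test of it. The log2 changes of TPM + 1 from oocyte to blastocyst ran from -3.93 ± 0.84 (SE, 2 libraries a stage) for Zp2, with an adjusted p of 0.00138, to -11.06 ± 1.32 for Gdf9, with an adjusted p of 1.85e-05. Adjusted p values are from limma over all genes tested, with Benjamini-Hochberg adjustment. The calls in both comparisons held for all 6 genes with each library left out in turn and under every other alternative that was run. The 2 comparisons share the oocyte libraries. Quantile normalization moved the share of higher calls among all calls from 66.3% to 50.2% from oocyte to blastocyst and from 32.4% to 50.2% in oocyte against sperm. Between these ends the means of the genes took different courses in the plot of levels by library. Differences in course between genes were not tested.

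**Figure D1:**
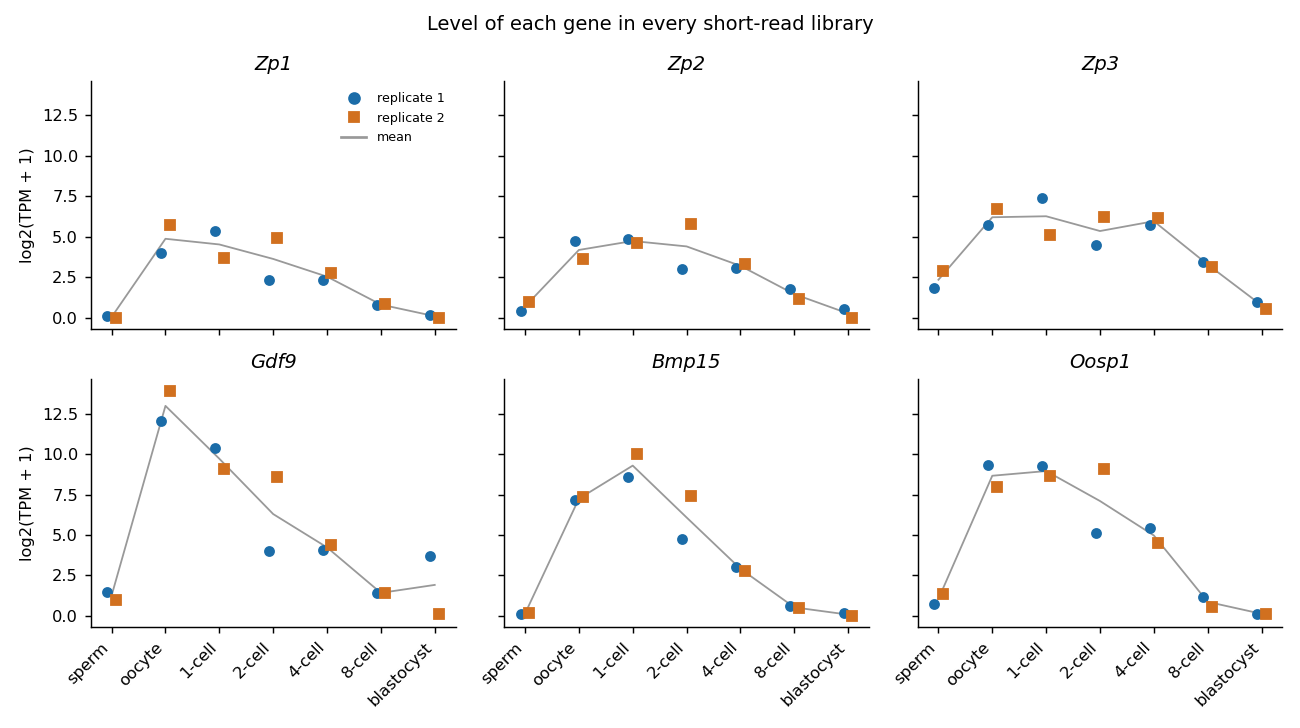
Level of 6 genes in each of the 14 short-read libraries, as log2(TPM + 1), by stage. Circles are replicate 1, squares replicate 2 and lines join the means of the 2 libraries. The mean is highest in oocyte for Gdf9 and in 1-cell for Bmp15, though neither gene was called between these stages. Zp3 stays high to the 4-cell stage, and the 2-cell squares lie above the 2-cell circles in all 6 panels.

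Gdf9, which encodes the ligand GDF9, was the most abundant member in both oocyte libraries. It stood at 4176 and 15568 TPM in the oocyte libraries, which ranked it 34th and 4th among the annotated genes. Its level was 1302 and 538 TPM in 1-cell, 15.1 and 380 in 2-cell, 15.9 and 19.9 in 4-cell, 1.64 and 1.71 in 8-cell, 11.9 and 0.0965 in blastocyst, and 1.84 and 1.02 in sperm. Every oocyte library was above every 1-cell library and every 1-cell library above every 2-cell library, while 2-cell and 4-cell overlapped. Of all genes, 9.02% were lower with no overlap at the first of these steps and 15.4% at the second. Gdf9 alone made up 82.5% and 96.4% of the summed TPM of the 6 genes in the oocyte libraries and 51.3% and 26.8% in the 1-cell libraries. The log2 change over fertilization was -3.27 ± 1.32 (adjusted p = 0.431). The next step, to the 2-cell embryo, was -3.42 ± 1.32 (adjusted p = 0.0622), so neither was called. Over both steps, from oocyte to 2-cell, Gdf9 fell by 6.69 on the log2 scale (adjusted p = 0.00135), and this call held in all 13 alternatives. Its size depended on the 2-cell library, at -8.97 without replicate 2 and -4.40 without replicate 1. It was the only member called in that comparison, where 6.59% of genes were called lower. Without 2-cell replicate 2, 4 members were called, Zp1, Gdf9, Bmp15 and Oosp1, against 12.4% of all genes, and without 2-cell replicate 1 Gdf9 only, against 4.43%.

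Bmp15, the X-linked gene of the ligand that pairs with GDF9, was higher in the 1-cell embryo than in the oocyte in both libraries. It was at 141 and 160 TPM in oocyte and at 386 and 1005 TPM in 1-cell. The 2 pairs did not overlap, as for 28.6% of all genes in this direction, and the change of 2.05 ± 0.83 was not called (adjusted p = 0.431). In 2-cell it was at 25.8 and 170 TPM, in 4-cell at 7.17 and 5.92, in 8-cell at 0.502 and 0.380, in blastocyst at 0.113 and 0, and in sperm at 0.0868 and 0.111. Bmp15 was the only member called from 1-cell to 2-cell, with a change of -3.20 ± 0.83 (adjusted p = 0.00986). Of all genes, 6.2% were called lower and 26.1% higher in that comparison. The median change of all genes was 0.72 there and -0.12 after quantile normalization, which turned 620 lower and 2607 higher calls into 1757 and 1591, while Bmp15 stayed called at -3.31. The call was lost without 1-cell replicate 2 (adjusted p = 0.105) and without 2-cell replicate 1, where the change was -1.87 (adjusted p = 0.0676), no member was called and 3.94% of all genes were called lower. Without 2-cell replicate 2 it was -4.54, and the called members were 4, Zp1, Gdf9, Bmp15 and Oosp1, against 13.9% of all genes. From 2-cell to 4-cell Bmp15 changed by -3.17 ± 0.83 (adjusted p = 0.0515), with no overlap, as for 22.1% of all genes.

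The ratio of the ligands was taken within each library. Gdf9 was 29.6 and 97.3 times Bmp15 in the oocyte libraries, 3.37 and 0.536 times in the 1-cell libraries and 0.586 and 2.23 times in the 2-cell libraries. In the 4-cell libraries it was 2.22 and 3.36 times and in the 8-cell libraries 3.27 and 4.50 times. The oocyte ratios were above all ratios of the 1-cell to 8-cell libraries. Blastocyst replicate 1 had a ratio of 106 and the sperm libraries 21.2 and 9.12, from Bmp15 levels of 0.113 TPM or less, and in blastocyst replicate 2 Bmp15 was listed at 0. An exact two-sided permutation test of 2 libraries against 2 cannot give a p under 0.333, and no other test of the ratio was made. No member was called from oocyte to 1-cell by limma, and 2 of them, Gdf9 and Bmp15, had an unadjusted p under 0.05. Few genes were called at this step at all, 0.05% lower and 0.33% higher of 10000.

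Oosp1 overlapped between oocyte and 1-cell embryo and was lower from the 4-cell stage on. It was at 653 and 249 TPM in oocyte, 615 and 396 in 1-cell, 33.2 and 548 in 2-cell, 42.6 and 21.5 in 4-cell, 1.26 and 0.469 in 8-cell, 0.1002 and 0.0851 in blastocyst, and 0.695 and 1.51 in sperm. Oocyte, 1-cell and 2-cell ranges overlapped, and 2-cell replicate 2 lay among the oocyte and 1-cell values while replicate 1 lay within the 4-cell range. The step to 2-cell (-1.85 ± 1.03, adjusted p = 0.188) and the step from there to 4-cell (-2.13 ± 1.03, adjusted p = 0.218) were not called. With 2-cell replicate 2 left out the first of these was -3.85 (adjusted p = 0.00221), and with replicate 1 left out the second was -4.13 (adjusted p = 0.00566). Which of the 2-cell libraries is used thus decides at which of the 2 steps the fall is called.

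The zona genes were lower throughout than the ligands in the oocyte and are described next. Zp1, whose protein cross-links the zona filaments, was at 15.1 and 52.4 TPM in oocyte, 39.5 and 12.1 in 1-cell, 4.06 and 29.3 in 2-cell, 4.05 and 5.66 in 4-cell, 0.691 and 0.815 in 8-cell, 0.133 and 0 in blastocyst, and 0.0572 and 0 in sperm. Neighbouring stages overlapped from oocyte to 4-cell. Zp2, whose protein is the main sperm-binding component, was at 26.0 and 11.2 TPM in oocyte, 28.3 and 23.3 in 1-cell, 6.98 and 55.1 in 2-cell, 7.42 and 9.06 in 4-cell, 2.39 and 1.22 in 8-cell, 0.431 and 0 in blastocyst, and 0.350 and 0.924 in sperm. Its 2-cell mean of 31.0 TPM was the highest of any stage, and that mean rests on replicate 2. The change of Zp2 from oocyte to 2-cell was 0.22 ± 0.84 (adjusted p = 0.858), and it was -0.81 after quantile normalization.

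Zp3, which encodes the partner of ZP2 in the zona filament, was the most abundant zona gene in all 12 oocyte and embryo libraries. It was at 51.7 and 102 TPM in oocyte, 168 and 34.1 in 1-cell, 21.6 and 72.9 in 2-cell, 52.2 and 71.8 in 4-cell, 9.96 and 7.66 in 8-cell, 0.989 and 0.450 in blastocyst, and 2.53 and 6.29 in sperm. The 4-cell level overlapped the oocyte level, unlike that of the other 5 genes, whose 4-cell libraries were all below their oocyte libraries, as were those of 25.1% of all genes. The ratio of Zp3 to Zp1 was 3.42 and 1.95 in oocyte, 4.25 and 2.82 in 1-cell, 5.33 and 2.49 in 2-cell, 12.9 and 12.7 in 4-cell, and 14.4 and 9.39 in 8-cell. Both 4-cell ratios of Zp3 to Zp1 were above all oocyte, 1-cell and 2-cell ratios of these genes. The ratio of Zp3 to Zp2 was 1.99 and 9.11 in oocyte and 7.04 and 7.93 in 4-cell, so its 4-cell values lay within its oocyte range. These differences were not tested.

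**Figure D2:**
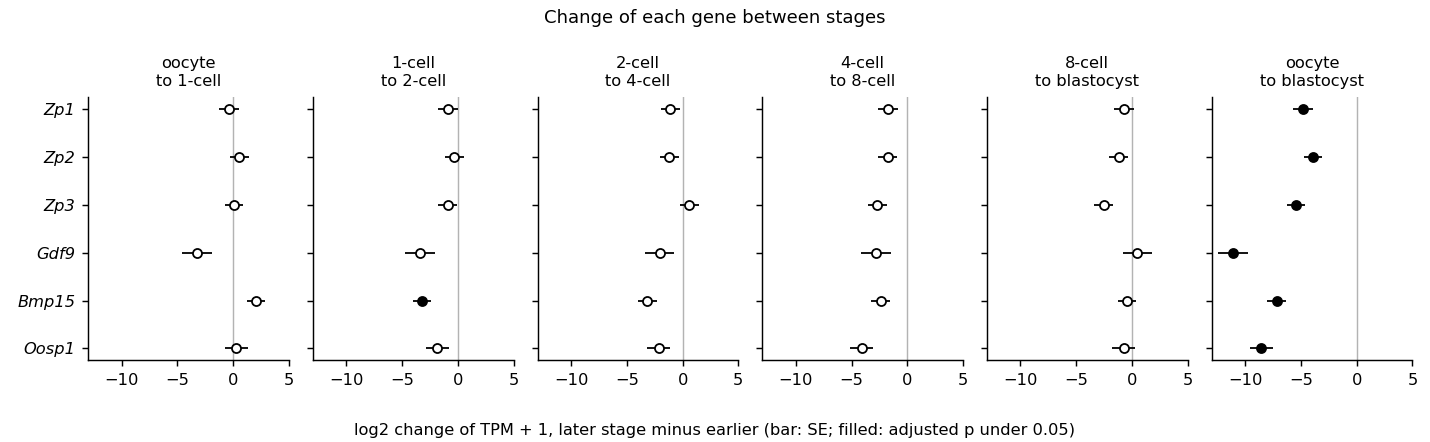
Change of 6 genes between stages, as the difference of mean log2(TPM + 1), later minus earlier, with the SE of the limma fit as bars (2 libraries a stage). Filled points have an adjusted p under 0.05. All 6 are filled from oocyte to blastocyst, 1, Bmp15, from 1-cell to 2-cell, and none at the other steps, while all 6 lie left of 0 from 4-cell to 8-cell.

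At the 8-cell stage all 6 genes were below the 4-cell stage, with no overlap between the libraries. This was also so for 47.3% of all genes tested. None was called in the limma fit over 12 libraries, in which 0.9% of genes were called lower, and 3 (Zp3, Bmp15 and Oosp1) had an unadjusted p under 0.05. The changes ran from -1.73 ± 0.88 for Zp1 to -4.10 ± 1.03 for Oosp1 (adjusted p = 0.0629). The median over the 6 genes was -2.53, against -0.34 over all genes. That fit shares 1 spread over stages. Replicate 2 differed from replicate 1 by more than 1 on the log2 scale, up or down, for 0.975% and 4.13% of genes in 4-cell and for 6.01% and 6.46% in 8-cell, against 51.2% and 17.2% in 2-cell. In a fit on the 4 libraries of both stages all 6 members were called, with adjusted p from 0.00162 for Oosp1 to 0.00902 for Zp2, where 27.0% of all genes were called lower. With stages weighted by their spread all 6 were called as well, against 28.2% of all genes. From 2-cell to 4-cell no member was called, 1, Bmp15, had an unadjusted p under 0.05, and 1.82% of genes were called lower. Without 2-cell replicate 1, 4 members were called at this step, Zp2, Gdf9, Bmp15 and Oosp1, against 13.5% of all genes. From 8-cell to blastocyst no member was called, with 1.49% of genes called lower, and 1, Zp3, had an unadjusted p under 0.05. At this step 5 of 6 did not overlap, against 28.1% of all genes. Of these 5, Zp1, Bmp15 and Oosp1 had means under 1 TPM in both stages, and Zp2 went from 1.80 to 0.216 TPM. The adjacent comparisons share libraries, so they are not independent of each other.

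The long reads gave full models for some members and partial ones for others, which bears on what their TPM counts. Zp1 (chr19:10914287-10920632, minus strand, mm10) had 1 transcript of 12 exons, TCONS_00010539, whose introns equal those of the annotated transcript. Bmp15 (chrX:6314107-6320721, minus strand) likewise had 1, TCONS_00022175, with 2 exons and all 1176 coding bases. Zp2 (chr7:120126772-120145291, minus strand) had 2, and neither held its 5′ part. TCONS_00019187 held 8 exons and 40.8% of the 2139 coding bases, and TCONS_00019188 5 exons and 30.7%. Both lack the annotated start codon, so Zp2 levels count reads from the 3′ part of the gene only. TCONS_00019187 also lacks the end of the annotated coding sequence.

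The 2 Zp2 transcripts end in different last exons, and their final 30 bases are shown because each end has its own AATAAA signal, in capitals.
TCONS_00019187: tctttaaactctAATAAAattatcctctgg
TCONS_00019188: attggacttgcaAATAAAgagactgcagtt
The signal began 18 bases from the end in both. Of 58797 coding transcripts of vM21, 39.3% have AATAAA in their last 40 bases. The longer form, which ends in the distal exon, made up 61.2% and 73.0% of Zp2 TPM in oocyte, 65.1% and 63.0% in 1-cell, 36.2% and 52.7% in 2-cell and 21.3% and 43.7% in 4-cell. Its share was higher in each oocyte and 1-cell library than in each 2-cell and 4-cell library. This difference was not tested, and how many other transcripts separate in this way was not counted. Neither form was called in the 3 steps tested for transcripts, which called 0.084% of transcripts lower in 1-cell than in oocyte, 5.11% lower in 2-cell than in 1-cell, and 1.17% lower in 4-cell than in 2-cell.

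**Figure D3:**
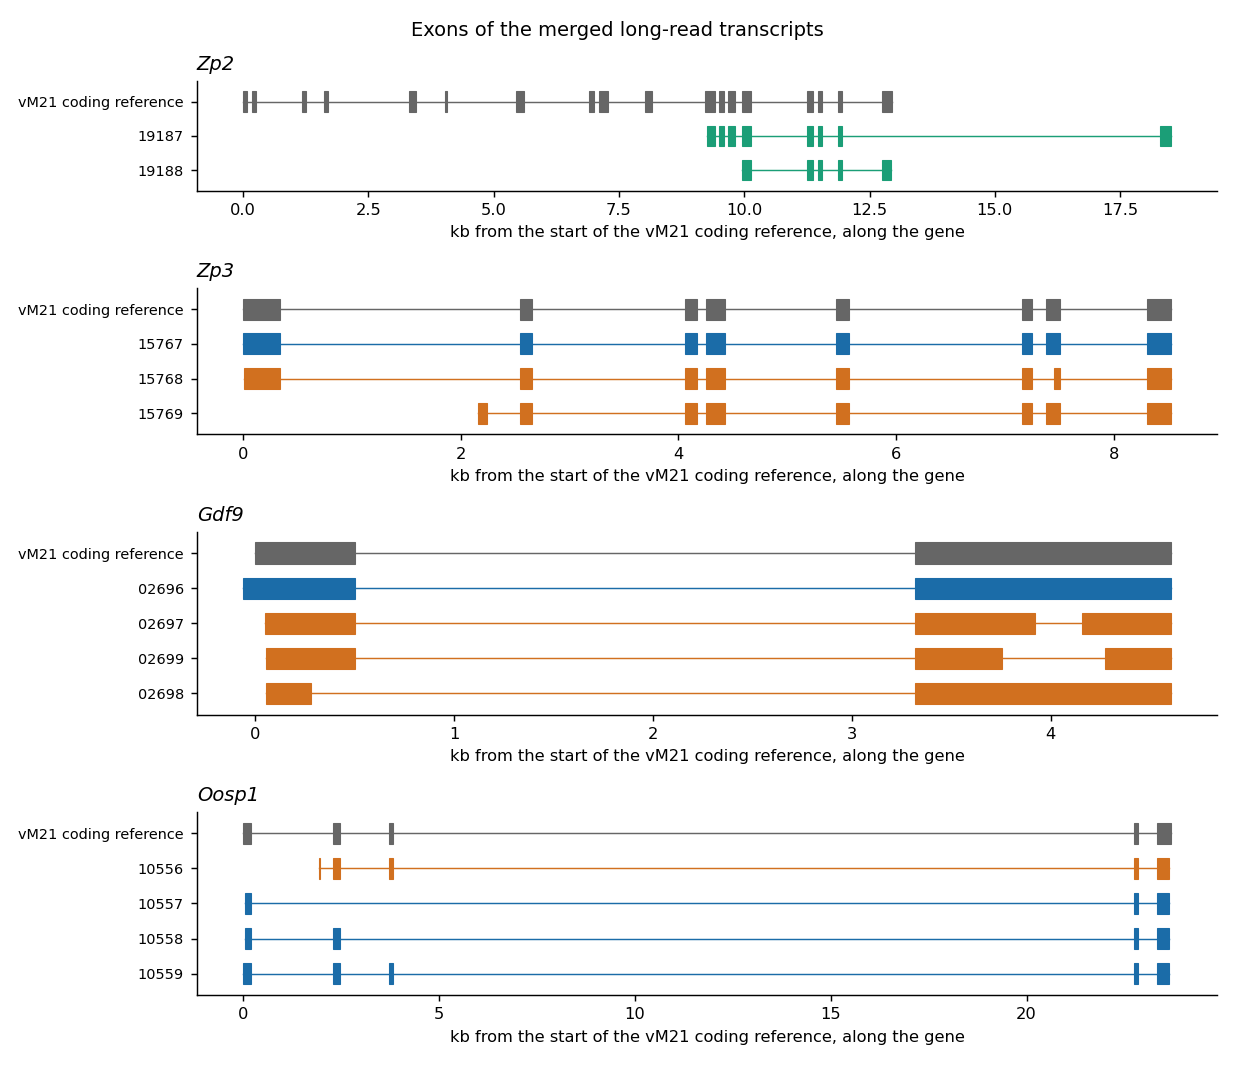
Exons of the merged long-read transcripts of Zp2, Zp3, Gdf9 and Oosp1 under the annotated coding transcript (grey), by distance in kb from its start along the gene. Blue marks transcripts (named by the end of their number) with an annotated intron chain, green a part of one and orange a chain with an intron that vM21 lacks. Both Zp2 forms lack the 5′ part, and 1 form each of Zp3 and Oosp1 begins inside the gene.

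Zp3 (chr5:135980099-135988624, plus strand) had 3 transcripts of 8 exons each. TCONS_00015767 has the annotated introns and all 1272 coding bases, and made up 95.3% and 96.7% of Zp3 TPM in oocyte and 94.1% and 96.9% in 1-cell. Its share was 82.4% and 65.7% in 2-cell, 88.9% and 77.1% in 4-cell, and 50.8% and 56.3% in 8-cell. TCONS_00015768, found in the oocyte long reads, enters exon 7 at a later splice site, which removes 79 coding bases, a number that is no multiple of 3. The removed stretch ends with the bases AG, in capitals here: attcaagctcttcacAGttccagatccatg (chr5:135987534-135987563, plus strand). It was at 2.42 and 3.34 TPM in oocyte and at 9.90 and 1.04 TPM in 1-cell.

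TCONS_00015769 begins with another first exon of 81 bases at chr5:135982259-135982339, inside the first intron of Zp3. No vM21 exon of either strand overlaps it. The transcript keeps 75.7% of the coding bases, lacks the annotated start codon, and came from a 2-cell long-read model. It was listed at 0 in both oocyte and both 1-cell libraries, then stood at 3.23 and 23.6 TPM in 2-cell, 4.70 and 15.0 in 4-cell, 4.90 and 2.91 in 8-cell, and 0.989 and 0.326 in blastocyst. In sperm it was at 2.53 and 5.80 TPM. Its rise between the 1-cell and the 2-cell embryo was 3.35 ± 0.79 in log2(TPM + 1). The adjusted p was 0.00883 in the limma fit over transcripts, of which 22.9% were called higher. Its first intron stood in 1 long-read model, of the 2-cell pool. The form thus entered the merged set through the stage where it was called higher. The call is in part set by that entry and is no independent test of the rise. The call held in 9 of 12 alternatives, with a rise of 4.62 without 2-cell replicate 1 and of 2.08 without replicate 2. It was lost with either 1-cell library left out (adjusted p = 0.0558 and 0.0600) and with stages weighted by their spread (adjusted p = 0.0911). TCONS_00015767, with the annotated first exon, changed by -1.28 ± 0.83 at the same step (adjusted p = 0.272). The 2 forms share exons 2 to 8, so the split of reads between them rests on the first exon alone.

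**Figure D4:**
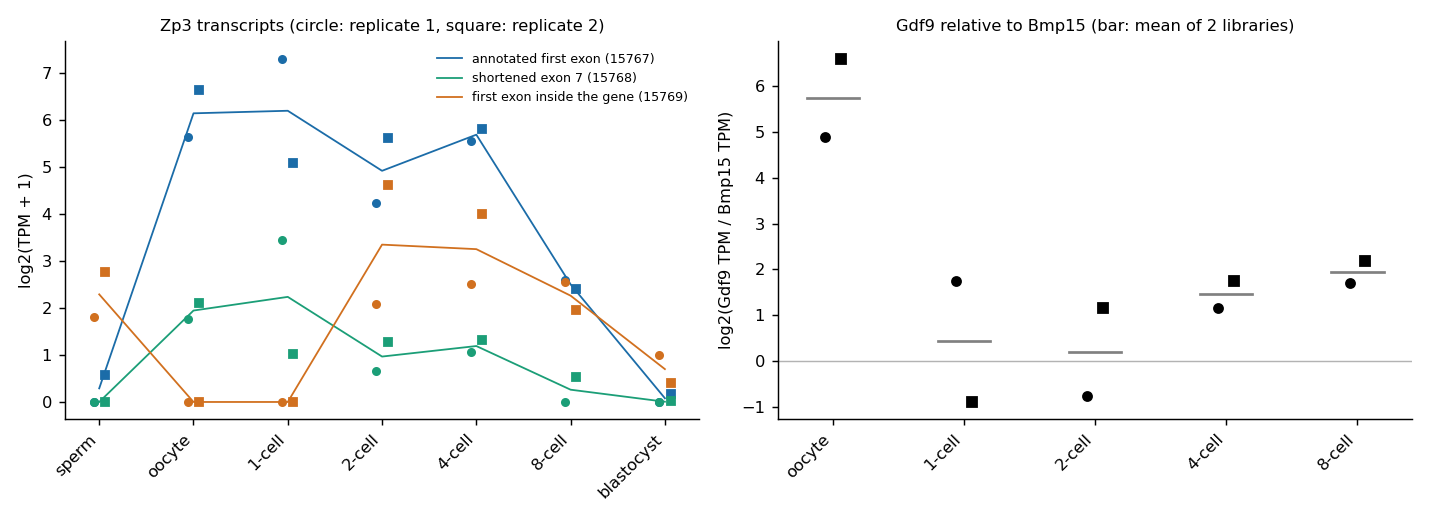
Left, levels of the 3 Zp3 transcripts by stage as log2(TPM + 1), with circles for replicate 1, squares for replicate 2 and lines through the means. Right, log2 of the ratio of Gdf9 TPM to Bmp15 TPM in the same libraries from oocyte to 8-cell, with bars for the mean of the 2 libraries. The form with the first exon inside the gene lies at 0 in oocyte and 1-cell and above it in 2-cell, and the ratio is highest in oocyte.

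Gdf9 (chr11:53431023-53437904, plus strand) had 4 transcripts. TCONS_00002696 has the annotated intron and all 1323 coding bases, and made up 92.2% and 96.6% of Gdf9 TPM in oocyte. TCONS_00002698 leaves the first exon 224 coding bases early, a number that is no multiple of 3. It was at 295 and 445 TPM in oocyte, 146 and 35.3 in 1-cell, and 9.61 and 106 in 2-cell, so that its share of Gdf9 was 7.08% and 2.86% in oocyte, 11.2% and 6.55% in 1-cell, and 63.5% and 27.8% in 2-cell. It was not called in the 3 steps (adjusted p = 0.525, 0.438 and 0.188), against -4.17 ± 1.52 for TCONS_00002696 from 1-cell to 2-cell (adjusted p = 0.0582).

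The other 2 Gdf9 transcripts carry an intron inside the last exon, where the annotation has none. TCONS_00002697 lacks 231 bases, all coding and a multiple of 3. TCONS_00002699 lacks 519 bases, with the stop codon among them. The edges of the missing stretches of TCONS_00002698 and TCONS_00002697 are shown because splice sites usually read GT and AG, with the first 2 and the last 2 missing bases in capitals.
TCONS_00002698, first edge, chr11:53433566-53433595: atgggactgacagGTctggcctcttgcccc
TCONS_00002697, first edge, chr11:53437210-53437239: aacagtttcttttCCcccaaaacgagtgtg
TCONS_00002697, last edge, chr11:53437437-53437466: gtgccgggcaagtacAGccccctgagtgtg
TCONS_00002698 leaves the exon at GT. The edges of TCONS_00002697 read CC and AG and share 5 bases, so that the exact place of the joint cannot be told within that many bases. Each was found in 1 long-read model, of the oocyte for TCONS_00002697 and of the 1-cell embryo for TCONS_00002699. TCONS_00002697 was at 4.11 and 14.1 TPM in oocyte and 1.08 and 0.211 in 1-cell, and TCONS_00002699 at 24.8 and 68.2 TPM in oocyte, 8.86 and 3.52 in 1-cell, and 0 and 1.23 in 2-cell. TCONS_00002697 was called lower from oocyte to 1-cell (adjusted p = 0.0481) and TCONS_00002699 from 1-cell to 2-cell (adjusted p = 0.0309). Each was thus called lower at the step that leaves the stage of its long-read model. The calls are in part set by how the forms entered the merged set and are no independent test of a fall. The first call held in 4 of 11 alternatives and the second in 7 of 12. The second was lost without 2-cell replicate 1 (-1.58, adjusted p = 0.107).

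Oosp1 (chr19:11667460-11691150, minus strand) had 4 transcripts. TCONS_00010559 has all 5 exons and 606 coding bases and made up 73.8% and 81.9% of Oosp1 TPM in oocyte. TCONS_00010558 skips exon 3, 98 coding bases, and TCONS_00010557 exons 2 and 3, 280 coding bases; vM21 lists both chains. They were at 112 and 34.9 TPM and at 40.9 and 10.1 TPM in oocyte. TCONS_00010558 kept 17.1% and 14.01% of Oosp1 TPM in oocyte, 17.2% and 15.9% in 1-cell, 35.7% and 18.3% in 2-cell and 13.9% and 13.8% in 4-cell. TCONS_00010556 begins with a first exon of 39 bases inside the first intron (chr19:11689186-11689224) that vM21 lacks. It was at 18.6 and 0 TPM in oocyte, 0 and 2.75 in 1-cell, 1.92 and 23.7 in 2-cell and 0.0409 and 2.06 in 4-cell, and its change from 1-cell to 2-cell of 2.13 ± 1.26 was not called (adjusted p = 0.227).

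The long-read pools held models of the members mostly in the first stages. Oocyte had models of all 6 genes, 15 in all. The 1-cell pool had 5 of Gdf9, 5 of Bmp15, 4 of Oosp1, 1 of Zp2 and 1 of Zp3, and the 2-cell pool 2 each of Zp3, Gdf9 and Oosp1 and 1 of Bmp15. The 4-cell pool had 1 each of Zp1, Gdf9 and Oosp1. The 8-cell, blastocyst and sperm pools had none, among 8831, 8409 and 8521 models of any gene. With 1 pool a stage, these counts have no replicate check.

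Some other genes of the TGF-beta pathway were measured too. Of 15 other ligands, 3 had a transcript in the merged long-read set, Tgfb2, Bmp6 and Gdf3, and the rest were not measured. Tgfb2 was at 286 and 118 TPM in oocyte and Bmp6 at 15.4 and 41.1, and neither was called up to the 2-cell stage with both libraries. Without 2-cell replicate 2 Tgfb2 was called lower from 1-cell to 2-cell (-2.51, adjusted p = 0.0229). Of 9 receptors, 4 were measured and 1 was called lower from 1-cell to 2-cell, 0 higher, a step where 6.2% of all genes were called lower and 26.1% higher. It was Bmpr1b, a type I receptor for BMP ligands, at 60.7 and 200.4 TPM in oocyte, 140.1 and 175 in 1-cell and 14.8 and 59.1 in 2-cell, with a change of -2.36 ± 0.78 (adjusted p = 0.0327). This call was lost without 2-cell replicate 1 (-1.39, adjusted p = 0.176). Bmpr2, the type II receptor of both GDF9 and BMP15, had no transcript in the merged long-read set, so its RNA was not measured here. Of 8 Smads, the intracellular transducers, 4 were measured and 1, the inhibitory Smad7, was called higher, from 0.332 and 0.128 TPM in 1-cell to 39.6 and 91.1 in 2-cell (5.64 ± 0.67, adjusted p = 0.000118), and it was called without either 2-cell library. Of 5 antagonists only Fstl3 was measured, at 26.0 and 10.5 TPM in 1-cell and 4.66 and 3.25 in 2-cell, and it was not called (adjusted p = 0.0954).

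Of 9 genes of zona processing and other zona-domain proteins, 3 were measured and 2 tested. Astl, which encodes ovastacin, the cortical granule protease that cleaves ZP2 after fertilization, was at 42.5 and 32.9 TPM in oocyte, 10.8 and 7.16 in 1-cell and 2.10 and 10.7 in 2-cell. Furin, a protease that trims secreted precursors, was at 591 and 358 TPM in oocyte, 42.0 and 8.81 in 1-cell and 2.38 and 158 in 2-cell. Neither was called from oocyte to 1-cell (adjusted p = 0.311 and 0.183), though for both the 2 stages did not overlap, as for 9.02% of all genes. Over both steps, from oocyte to 2-cell, both were called lower, against 6.59% of all genes. The call of Astl held without either 2-cell library (-1.72 without replicate 1 and -3.63 without replicate 2), and that of Furin was lost without replicate 1 (-1.54, adjusted p = 0.176) and was -7.09 without replicate 2. From 1-cell to 2-cell Furin was called higher without replicate 1 (2.95, adjusted p = 0.0196) and lower without replicate 2 (-2.60, adjusted p = 0.0322).

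Of 13 transcription factors of the oocyte and partners or inhibitors of helix-loop-helix factors, 9 were measured, and from 1-cell to 2-cell 3 were called lower and 3 higher, against 6.2% and 26.1% of all genes. Without 2-cell replicate 1 these counts were 2 and 2, against 3.94% and 32.2%, and without replicate 2 they were 4 and 2, against 13.9% and 24.5%. Nobox, a homeobox factor of oocyte growth, was at 6.40 and 6.39 TPM in oocyte, 45.1 and 31.8 in 1-cell and 2.00 and 10.1 in 2-cell, a change of -2.75 ± 0.64 at the second step (adjusted p = 0.00511). Lhx8, another homeobox factor, was at 26.5 and 98.3 TPM in oocyte, 122.8 and 164 in 1-cell and 12.2 and 20.9 in 2-cell (-3.07 ± 0.73, adjusted p = 0.00613). Sohlh2 fell as well (-3.20 ± 0.97, adjusted p = 0.0212), and the inhibitor gene Id1 rose (3.41 ± 0.72, adjusted p = 0.00306). The calls of Nobox, Lhx8 and Id1 held without either 2-cell library, with a change of -1.81 for Nobox without replicate 1, and that of Sohlh2 was lost without replicate 1 (-1.48, adjusted p = 0.170). Oosp3, the relative of Oosp1, was at 366 and 184 TPM in oocyte, 578 and 421 in 1-cell and 9.21 and 232 in 2-cell, and was the only 1 of 3 relatives called (-3.34 ± 1.06, adjusted p = 0.0272). Without 2-cell replicate 1 it was not called (-1.09, adjusted p = 0.266), and without replicate 2, 2 of the 3 relatives were called lower.

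The genes most like each member over the 14 libraries were found by Pearson r of log2(TPM + 1), among 10729 other genes. These values are descriptions over libraries that share stages and batches. For Zp1 they were Krt84, Slc45a3 and Wfdc3 (r = 0.983, 0.983 and 0.974), and for Zp2 Fbxw23, Tmprss11a and Sytl2 (0.985, 0.981 and 0.972). For Zp3 they were Rbbp8, Gpr3 and Tbp (0.944, 0.941 and 0.938), none as close as those of the other members. Gdf9 was nearest to Cmya5, Btg4 and Lrrc17 (0.984, 0.982 and 0.982), Bmp15 to Wee2, Gm26996 and Gm13023 (0.991, 0.990 and 0.989) and Oosp1 to Oog3, Trim61 and Oog1 (0.992, 0.992 and 0.988). The mean of the 6 members was nearest to Accsl, Khdc1b, Trim61, Oog3 and Gm26996 (0.991, 0.984, 0.983, 0.983 and 0.983). Among the members the highest r was between Zp2 and Oosp1 (0.967) and the lowest between Zp3 and Gdf9 (0.771).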

How the data were processed

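2 short-read libraries for each of 7 stages and 1 long-read pool a stage were analysed, grouped by title. The authors ran Salmon and deposited its TPM in 2 sets, over merged long-read transcripts and over those of a library's own stage. The submitters' processing notes also name GSNAP, STAR, Cufflinks and mm10. The exon models, deposited as coordinates, were assigned to GENCODE vM21 genes by the largest same-strand exon overlap (4279 transcripts had no gene and 954 overlapped several). vM21 lies on GRCm38, the assembly of mm10, while the study's methods name vM20. TPM keeps no depth, so no count test was possible. The study lists the number of reads of each short-read library, and these numbers were not used here. The methods' test on raw reads was not run.

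log2(TPM + 1) was fitted with limma 3.58.1 (R 4.3.3; lmFit, contrasts.fit, eBayes with trend) over the 12 libraries from oocyte to blastocyst, and over 14 for oocyte against sperm, with stage as the only term. Features needed a TPM of 1 or more in 2 libraries or more, and an adjusted p under 0.05 was called. Fold changes on this scale understate those of low genes. The script was tested on simulated data with less spread than the members show between the 2-cell libraries. That test checks the script and does not cover such spread. P-values measure the spread between 2 libraries a stage.

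The members and gene lists were chosen with earlier results of these data known. Named were all members and their transcripts, up to 4 called genes a list with the largest change from 1-cell to 2-cell (or the 2 highest in oocyte), and the 3 genes nearest each member and 5 nearest their mean by r. Gdf3, Bmpr2 and the unmeasured markers were named after their values were seen. Alternatives were another pseudocount, other filters, quantile normalization, other sample sets, stage weights, a replicate block, single-gene transcripts, leaving out each library and, for member levels, own-stage TPM. Those of the 3 named transcript changes, and leaving out each 2-cell library for the named genes of the lists, were added after seeing the data. Sequences are from RefSeq (GRCm38.p6) and vM21 transcripts. The edge sequences of 1 Gdf9 transcript are not reported here.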

Additional observations from a re-analysis of the deposited data

How the results depend on the processing

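All 6 members stayed called lower in blastocyst than in oocyte in all 13 alternatives, and higher in oocyte than in sperm in all 12. Over all member and transcript changes, 581 results kept direction and side of the threshold, 28 gained a call, 17 lost one and 24 changed sign, 22 of those with a library left out. Where a library is left out, its stage has 1 library, which is assumed to vary like the others. The causes of these shifts were not tested. TPM keeps no depth, and what depth limits was not tested. With own-stage TPM, 3 stage means of members differed by at least the SD of the 2 libraries, and 15 by less. Oosp1 in 4-cell was at 95.1 and 40.3 TPM there, against 42.6 and 21.5 over the merged transcripts.

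From oocyte to 1-cell, 38 genes were called. The count was 23 with a pseudocount of 0.1, 1 without a filter, 9 after quantile normalization, 98 with 4 libraries, 86 with stage weights, 15 with all 14 libraries and 0 to 7 with a library left out (transcripts 1 to 422). From 1-cell to 2-cell, 3227 genes, 5664 transcripts and 1 member were called. With 4 libraries these were 2080, 2367 and 2, with stage weights 1531 genes and 2270 transcripts, and with a library left out 1677 to 3809, 2560 to 6902 and 0 to 4. In 4-cell against 2-cell, 340 genes, 532 transcripts and 0 members were called. A pseudocount of 0.1 gave 85 genes and 144 transcripts, quantile normalization 1076, 1829 and 1 member, 4 libraries 0 and 0, stage weights 1 and 1, all 14 libraries 141 genes, a TPM minimum of 5 called 1 member, and leaving out a library gave 0 to 1714, 2 to 2558 and 0 to 4.

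In 8-cell against 4-cell, 167 genes and 0 members were called. Quantile normalization gave 261 genes, 4 libraries 3482 and 6 members, stage weights 3921 and 6, a pseudocount of 0.1 called 1 member, and leaving out a library left 0 to 0 genes. In blastocyst against 8-cell, 300 genes were called, 555 with stage weights and 24 to 237 with a library left out, and 4 libraries called 1 member. In 2-cell against oocyte, 4113 genes and 1 member were called, 2234 genes with stage weights, 2 members after quantile normalization and 1 to 4 members with a library left out. Quantile normalization moved the share of higher calls from 86.8% to 55.6% (oocyte to 1-cell), 46.5% to 56.7% (2-cell to 4-cell), 46.1% to 69.3% (4-cell to 8-cell) and 84.0% to 46.9% (oocyte to 2-cell).

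The replicate numbers showed no steady pairing of the samples. Over 15 pairs of stages the deviations correlated at -0.55 to 0.48, and 5 were above 0.1, as were 3 of the 10 pairs without the 8-cell stage. Whether stages shared batches under other numbers was not tested. The 8-cell numbers are those of the titles, which the deposited files reverse. With the replicate block, 1 gene was called from oocyte to 1-cell, 87 genes and 182 transcripts from 2-cell to 4-cell, and 89 genes from 4-cell to 8-cell.

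Changes of sign from oocyte to 1-cell came with a library left out, with ranges of -1.21 to 0.51 for Zp1, -0.018 to 1.12 for Zp2, -1.07 to 1.196 for Zp3 and -0.40 to 0.98 for Oosp1. In 2-cell against 1-cell the ranges were -2.19 to 0.40 for Zp1, -1.74 to 1.07 for Zp2, -2.05 to 0.22 for Zp3 and -3.85 to 0.15 for Oosp1. In 4-cell against 2-cell they were -2.38 to 0.20 for Zp1, -2.61 to 0.21 for Zp2, -0.25 to 1.46 for Zp3 and -4.34 to 0.22 for Gdf9. In 2-cell against oocyte they were -2.54 to 0.045 for Zp1, -1.19 to 1.63 for Zp2, -1.71 to 0.0032 for Zp3, -2.50 to 0.18 for Bmp15 and -3.56 to 0.44 for Oosp1, and Zp2 was -0.81 after quantile normalization. Gdf9 in blastocyst against 8-cell ranged from -1.29 to 2.27 and was -0.21 with a pseudocount of 0.1.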

Other observations

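In sperm, most of the little TPM of Zp3 and Oosp1 fell on the forms that begin inside the gene. TCONS_00015769 held 100% and 92.1% of Zp3 TPM in the sperm libraries, at 2.53 and 5.80 TPM, and TCONS_00010556 held 86.0% and 90.6% of Oosp1 TPM, at 0.597 and 1.37 TPM. The same forms held 100% and 72.5% of Zp3 TPM and 100% and 100% of Oosp1 TPM in the blastocyst libraries. The sperm and blastocyst long-read pools had no model of either gene. These values are near the low end of the scale and were not tested.

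In blastocyst replicate 1 Gdf9 was at 11.9 TPM and made up 87.1% of the summed TPM of the members, against 0.0965 TPM in replicate 2. The other 5 members were at 0.989 TPM or less in both blastocyst libraries.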
